A study of Mus musculus with 12 samples.

Results

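The difference between brain and spinal cord at postnatal day 7 (P7) was measured in sorted Pdgfra/GFP+ cells of the mouse as total RNA-seq of 6 libraries, 3 from brain and 3 from spinal cord, out of 12 in the series. The members are the 6 P7 libraries, and all 16442 genes that reached 0.7 CPM (reads of a gene scaled to the size of its library) in at least 3 of them were tested, out of 47069 gene identifiers in the deposited table. The other 6 libraries hold the same 2 regions in embryos at stage E13.5, again in triplicate, and are used only to ask whether a region difference changed with age. The mice were of the Pdgfra-H2BGFP line, in which a histone H2B-GFP fusion is expressed under control of the Pdgfra locus. According to the study's methods the mice were heterozygous for this allele, since homozygotes die as embryos. All 6 libraries share it. The brain tissue was forebrain, both sexes were used, the P7 tissue was dissociated enzymatically and GFP-bright cells were collected by fluorescence-activated cell sorting, and each library came from a pool of animals. The GFP fusion outlives Pdgfra mRNA, so a sorted cell may already have left the Pdgfra-expressing state. Vascular and leptomeningeal cells also express Pdgfra. The libraries are bulk, and for every value here fewer cells of a type and less RNA per cell cannot be told apart.

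As background, Pdgfra encodes a receptor for platelet-derived growth factor and marks oligodendrocyte precursor cells (OPCs), the dividing cells that give rise to oligodendrocytes. A precursor that commits to differentiation loses Pdgfra, passes through a committed and a newly formed oligodendrocyte state, and then makes myelin, the lipid-rich membrane wrapped around axons, which needs large amounts of cholesterol and a small set of abundant proteins. Myelination begins earlier in the spinal cord than in the forebrain. The level of the neural tube from which a cell comes is recorded in transcription factors, with Hox genes expressed from the hindbrain backwards and factors such as Lhx2 and Emx2 in the forebrain.

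The 6 libraries held between 25276708 and 38790312 reads on genes, recovered from the deposited values, and 24488 to 25688 genes had at least 1 read. Within each region, replicates 1 and 2 were closer to each other than either was to replicate 3. The standard deviation (SD) of the log2 ratio over 5724 well covered genes was 0.062 for brain 1 and 2 against 0.203 and 0.207 for brain 3 with either, and 0.066 for spinal cord 1 and 2 against 0.174 and 0.161. For the close pairs the median chi-square was 1.61 (brain) and 2.21 (spinal cord) times its value under counting noise alone. The study describes 3 pooled biological replicates per group, and the labels do not say whether replicates 1 and 2 share animals or preparation. These ratios cannot decide that, since preparation also adds to counting noise. Both were kept as separate replicates, and n = 3 per region rests on this. Replicate 3 stood apart in content as well. In brain replicate 3, 39 of 50 myelin genes and 12 of 12 microglia markers were above the mean of the other brain libraries, and in spinal cord replicate 3 only 8 and 1 were. Of 23 vascular and leptomeningeal markers, 20 were above the other libraries' mean in replicate 3 of either region, by a median of 0.23 (log2) in brain and 0.96 in spinal cord. Where leaving out replicate 3 changed a call given here, this is stated beside it. Levels below are CPM rescaled by the trimmed mean of M values (TMM), and differences are brain minus spinal cord on the log2(CPM + 0.5) scale, where the fold of a low gene is understated.

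Most of the transcriptome was close between the regions: 92.9% of the tested genes lay within 2-fold, and the median difference was -0.01. With limma and Benjamini-Hochberg adjustment, 1165 genes (7.09% of those tested) passed an adjusted p of 0.05 and a 2-fold difference, and such genes are said below to be called. Of these, 561 (3.41%) were higher in brain and 604 (3.67%) lower. These shares are the background for the list counts below. The 3 libraries of one region did not overlap those of the other for any of the 1165 called genes, while 55.3% of all tested genes had no such overlap. With 3 libraries per region this follows largely from the rule for a call and adds no support to it. The genes lower in brain reached larger differences and higher levels: 189 of them differed over 4-fold and 28 over 16-fold, against 98 and 6 of the genes higher in brain, and 131 against 42 had a mean above 100 CPM in the higher group. The split between directions depended on scaling. With the scaling of the deposited values the median of all genes moved to -0.21 and the calls to 405 higher and 797 lower, so that 33.7% of calls were higher in brain; with TMM rescaling all changes are relative to a median near 0.

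**Figure D1:**
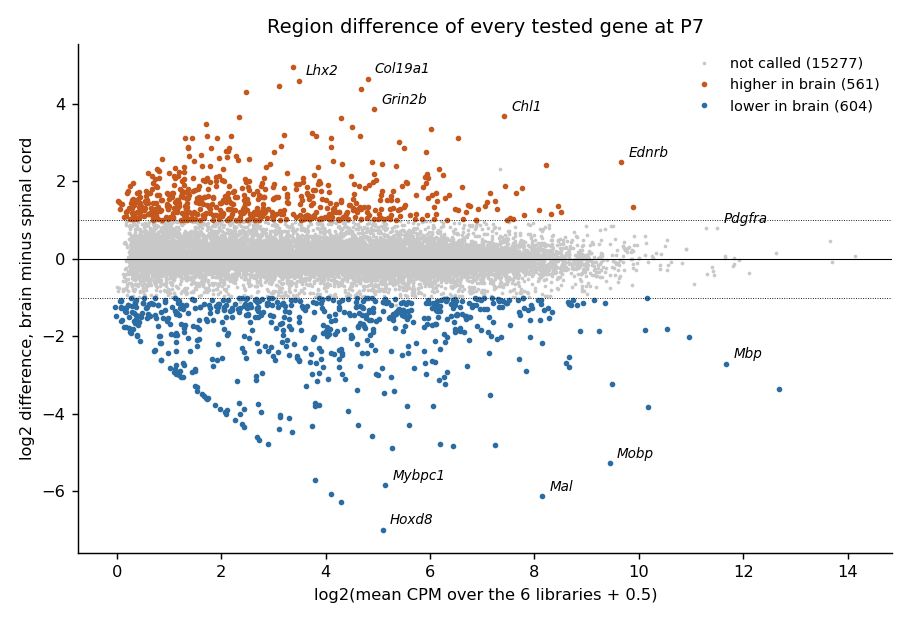
Difference between P7 brain and spinal cord (log2, vertical axis) against the mean level over the 6 libraries (log2 of CPM + 0.5, horizontal axis) for each of 16442 tested genes. Orange points are the 561 genes called higher in brain, blue points the 604 called lower, grey points the rest, and dotted lines mark a 2-fold difference; the lower edge on the left is set by genes with almost no reads in brain.

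The sorted identity was checked first. Pdgfra (chromosome 5, 75152292 to 75198215, plus strand, GRCm38), the gene used for the sort, was at 3982, 3898 and 3052 CPM in the brain libraries and at 2126, 2111 and 2039 CPM in the spinal cord libraries. The groups did not overlap, and the difference of 0.79 ± 0.11 (standard error (SE), n = 3 per region, limma adjusted p = 0.00113) stayed under 2-fold. Olig2 and Sox10, transcription factors of the whole oligodendrocyte lineage, were at means of 530 and 491 CPM in brain and 517 and 670 CPM in spinal cord. Of 25 OPC markers, 3 were called higher in brain (12%, against 3.41% of all genes) and none lower, with a median of 0.34. Cspg4, the NG2 proteoglycan, differed by 0.27, Vcan by 0.22 and Bcan by 0.03. The largest difference in this list was that of Ednrb, a receptor for endothelins, which was at 1570, 1557 and 1008 CPM in brain and at 251.0, 251.2 and 215.3 CPM in spinal cord. As in all called genes the regions did not overlap, and the difference was 2.5 ± 0.17 (adjusted p = 5.09e-05). Rlbp1, a retinoid-binding protein, differed by 1.83 and Emid1, a secreted matrix protein, by 1.29, and both were called.

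Other genes of neural stem and precursor cells were read beside Pdgfra. Sox2 was at 208.8, 199.8 and 183.9 CPM in brain and at 148.0, 143.8 and 125.8 CPM in spinal cord, a difference of 0.50 ± 0.07 that was under 2-fold (adjusted p = 0.00162). Sox9, which acts in glial specification and stays on in astrocytes, was at 62.6, 61.3 and 47.2 CPM in brain and at 17.9, 18.0 and 17.8 CPM in spinal cord, and was called at 1.63 ± 0.11 (adjusted p = 4.46e-05). For both genes all brain values were above all spinal cord values.

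**Figure D2:**
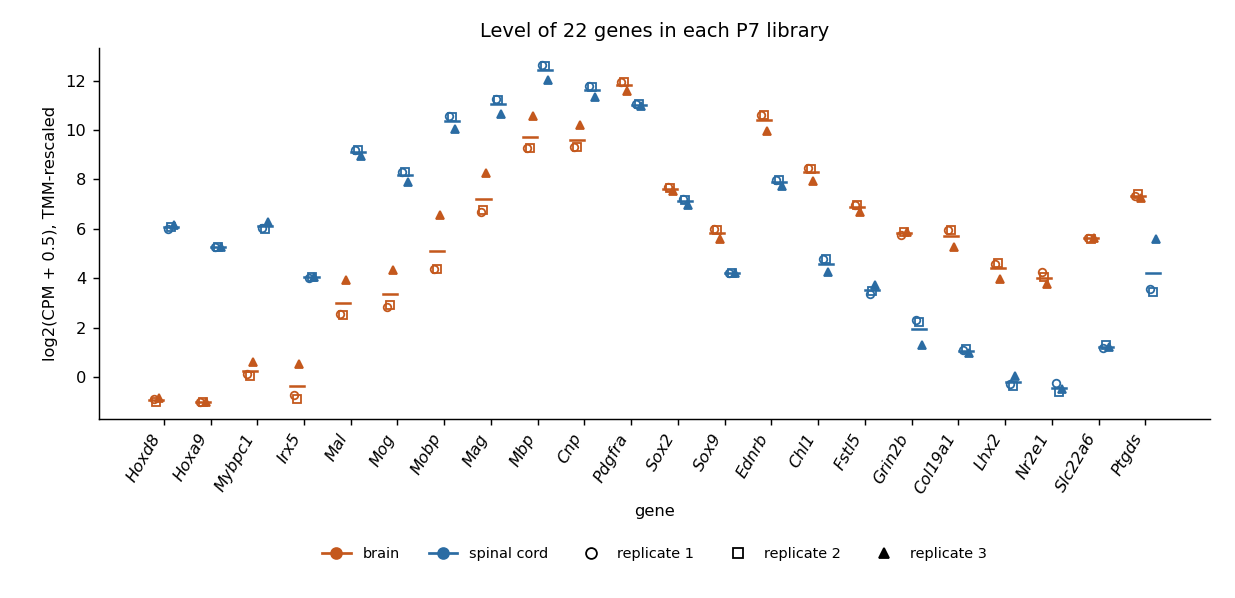
Level of selected genes in each of the 6 P7 libraries, as log2(CPM + 0.5) after TMM rescaling. Orange is brain and blue is spinal cord, circles, squares and triangles are replicates 1, 2 and 3, and bars are the means of 3 replicates; myelin genes such as Mal (means of 8.37 CPM in brain and 559 CPM in spinal cord) sit far lower in brain with replicate 3 the highest brain library, while Ednrb, Chl1 and Lhx2 sit higher in brain.

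Markers of other cells that a Pdgfra/GFP gate or a dissociated tissue could carry were measured beside these. All 5 tested red blood cell genes and 10 of 12 microglia markers were called higher in brain, with medians of 1.75 and 1.70. The summed level of the microglia list was 78.3, 79.3 and 143.6 CPM in brain and 52.7, 49.5 and 40.9 CPM in spinal cord, and that of the red blood cell list was 39.0, 37.9 and 69.1 CPM against 14.1, 13.1 and 8.2 CPM. Both lists were thus low in every library and highest in brain replicate 3, and without replicate 3 of both regions their medians were 1.08 and 1.20. Among single microglia markers, the fractalkine receptor gene Cx3cr1 was at 6.52, 7.29 and 17.6 CPM in brain and 3.03, 2.68 and 1.04 CPM in spinal cord, and the complement gene C1qc differed by 2.12 ± 0.36. The haemoglobin gene Hbb-bs differed by 2.02 ± 0.25. Hba-a1 and Hbb-bt have near-identical copies, and reads shared between copies make their single values uncertain.

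Of 23 vascular and leptomeningeal markers, 13 were called higher in brain and none lower, with a median of 1.09. The list was abundant: its sum was 2178, 2206 and 2716 CPM in brain and 1467, 1443 and 3088 CPM in spinal cord, so the groups overlapped in the sum because of spinal cord replicate 3. The collagens that lead the list by level were not called, with Col1a2 at 0.12 and Col3a1 at -0.58. The called members included Slc22a6, an organic anion transporter, at 49.5, 47.6 and 48.8 CPM in brain and 1.77, 1.94 and 1.85 CPM in spinal cord (4.38 ± 0.07, adjusted p = 8.09e-08). They also included Tbx18, a transcription factor of mural cells (2.45 ± 0.25), and Vtn, which encodes vitronectin (1.89 ± 0.24, from 57.4, 57.0 and 113.8 CPM in spinal cord to 264.0, 258.8 and 281.4 CPM in brain). With replicates 1 and 2 of each region averaged into 1 sample, 8 members were called. Only 1 of 11 endothelial markers was called, Slco1a4, at 1.18, and it was lost without replicate 3 of either region. Without brain replicate 3, 1 other was called lower. The best expressed endothelial markers, Itm2a and Cdh5, differed by 0.68 and 0.70.

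Among 29 astrocyte and radial glia markers, 7 were called higher in brain and 3 lower (34.5% called, against 7.09% of all genes). Higher were Gjb6, a gap junction gene (1.84), Sox9 and Mlc1 (1.55, lost without replicate 3 of both regions), with Slc1a3, the glutamate transporter GLAST, at means of 502 and 194 CPM. Lower were Itih3 (-2.17), Hopx (-1.42) and Fgfr3, a fibroblast growth factor receptor (-1.13). Aqp4 and Gfap, which define mature astrocytes, were at means of 36.7 and 12.3 CPM in brain and 34.1 and 16.9 CPM in spinal cord and were not called. Neuronal markers gave 6 called higher and 1 lower of 21 (33.3% called). Slc17a7, the vesicular glutamate transporter VGLUT1 of forebrain excitatory neurons, was at 9.5, 9.14 and 11.8 CPM in brain and had 3 reads in all in spinal cord, a ratio of 326.8 with a 95% Poisson interval of 111.8 to 1585 for counting error. Stmn2, a neuronal microtubule regulator, differed by 3.25 ± 0.28 and Nrgn, which encodes neurogranin, by 3.17 ± 0.13, while Map2 and Rbfox3, markers of neurons in either region, differed by 0.09 and 0.38. Elavl3 was lower in brain (-1.05), and was not called with brain replicate 1, spinal cord replicate 1 or spinal cord replicate 2 left out. Of 8 Schwann cell markers, 2 were called lower in brain, among them Cdh19 (-2.30), at means of 1.3 CPM in brain and 8.22 CPM in spinal cord, and 3 estimates were positive. The summed level of the list was higher in brain, at 1144, 1135 and 702.8 CPM against 576.2, 551.1 and 543.6 CPM. Most of it was Fabp7, which precursor and radial glial cells also express (943.2 ± 248.4 CPM against 508.3 ± 17.5 CPM, SD, n = 3). Without brain replicate 3, 1 member was called higher in brain, and without replicate 3 of both regions 2 were. The part of these other cells in the results that follow was not tested.

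The ependymal and choroid plexus list showed how far replicates of one region could part. Ttr, the choroid plexus gene for transthyretin, was at 64.1, 63.9 and 559.3 CPM in brain and at 143.8, 144.0 and 0.377 CPM in spinal cord. The groups overlapped and the difference of 2.33 ± 1.94 was not called (adjusted p = 0.366). Only Clic6 of 7 tested members was called (1.30 ± 0.42), a call lost under 14 of 21 alternatives, among them leaving out any brain library or spinal cord replicate 2 or 3. Rarres2 (-0.21) was not called.

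The Hox genes, which mark position along the body axis, separated the regions in every library. Of 39 Hox genes in the table, 35 were tested and all 35 were called lower in brain, where 3.67% of all genes were. No Hox gene exceeded 0.366 CPM in a brain library, so all 35 passed the level filter through spinal cord alone. A call could thus go only this way, and the shared direction is no added result. The 4 that were not tested (Hoxb1, Hoxb9, Hoxd12 and Hoxd13) were under the level filter in both regions. The summed Hox level was 0.603, 0.617 and 0.672 CPM in the brain libraries and 345.7, 340.9 and 352.7 CPM in the spinal cord libraries. In reads, the 3 brain libraries held 55 Hox reads in all and the 3 spinal cord libraries 35181. The median fitted difference was -3.58, a value that depends on the added 0.5 CPM, since 18 of the 35 genes had no read in any brain library. With those 18 genes set at the level of 3 reads per library (0.0916 to 0.116 CPM in brain), the median log2 ratio was -6.50.

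Hoxd8 (identifier ENSMUSG00000027102, chromosome 2, 74704615 to 74707933, plus strand) was the most abundant Hox gene. It was at 64.0, 66.4 and 71.0 CPM in spinal cord and had 3 reads in all in brain, a difference of -6.99 ± 0.09 (limma adjusted p = 5.01e-08). The ratio of means was 2086, with a counting interval of 713.9 to 10120. Hoxa9 (chromosome 6, 52223100 to 52231089, minus strand) was at 38, 38.4 and 38.3 CPM in spinal cord and had no read in any brain library, so that it was at least 365.8-fold higher in spinal cord. Hoxa10 was at 33, 32.5 and 34.5 CPM in spinal cord, also with no read in brain, and was at least 318.8-fold higher. Hoxa7 was at 27.7, 25.4 and 27.6 CPM, with 2 reads in brain. Hoxc8 was at 6.82, 6.53 and 5.75 CPM in spinal cord with no read in brain, at least 60.9-fold higher. The Hox gene with most reads in brain was Hoxa2, an anterior member, with 17 reads, most of them in replicate 3 (0.0709, 0.116 and 0.366 CPM), against 4.64, 4.65 and 4.18 CPM in spinal cord. Neighbouring Hox genes overlap or share transcripts in places, and reads of overlapping genes could have been split by the counting.

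Hox genes lie in 4 clusters (a to d) and are numbered by paralog group, from genes expressed from the hindbrain backwards (low numbers) to genes of the lumbar and sacral cord (high numbers). Per kilobase of exon, the spinal cord level was highest for Hoxd8 (24.5 CPM per kb), followed by Hoxa10 (10.2), Hoxa7 (9.35), Hoxb7 (7.67) and Hoxa5 (7.40). The median over paralog groups 1 to 4 was 1.62 CPM per kb, over groups 5 to 8 3.49 and over groups 9 to 13 2.76. By cluster the median was 5.35 CPM per kb in Hoxa and 1.99, 1.99 and 2.0 in Hoxb, Hoxc and Hoxd. The libraries held the whole spinal cord, so the levels are averages over its length. Replicate 3 parted from the others for 2 genes at the ends of the clusters. Hoxb13, the most posterior Hoxb gene, was at 3.57, 3.23 and 7.26 CPM in spinal cord, and Hoxd1 at 4.16, 4.50 and 2.51 CPM.

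**Figure D3:**
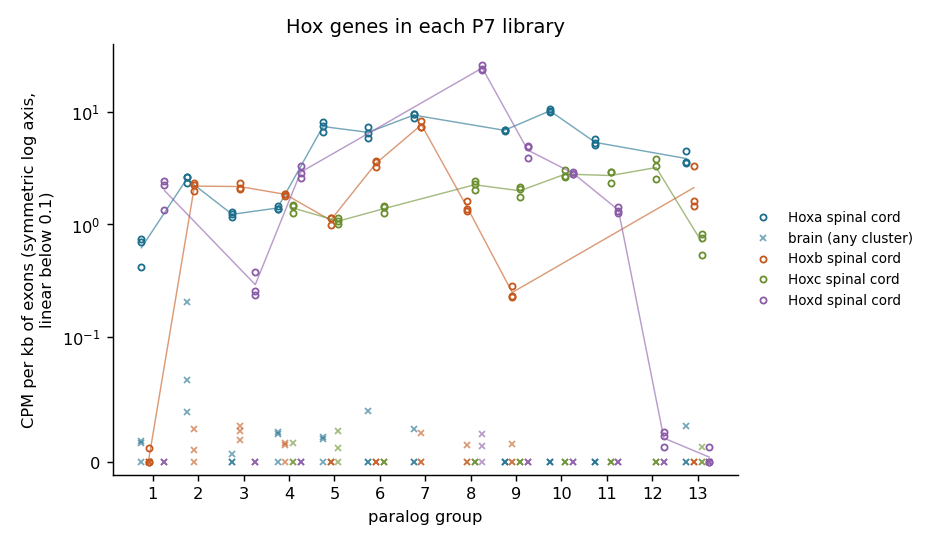
Level of the 39 Hox genes in each P7 library, as CPM per kb of exons (symmetric log axis, linear below 0.1), by paralog group. Circles are the 3 spinal cord libraries coloured by cluster, lines join their means, and crosses are the 3 brain libraries, which lie at or near 0 for every gene while Hoxd8 reached 24.5 CPM per kb in spinal cord.

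Other positional transcription factors were measured beside the Hox genes. Of 40 factors of the hindbrain and spinal cord, 28 were below the level filter. Of the 12 tested, 7 were called lower in brain and 2 higher, with a median of -1.81. Among them, Irx5 and Nkx6-1 were low in brain and passed the filter through their spinal cord levels. Irx5, an Iroquois homeobox gene, was at 0.106, 0.0386 and 0.946 CPM in brain and 15.5, 16.1 and 16 CPM in spinal cord (-4.39 ± 0.34, adjusted p = 9.57e-05), with brain replicate 3 above the other brain libraries. Irx2 differed by -3.38, Onecut2 by -3.14 and Pax3, a dorsal neural tube factor, by -2.73. Nkx6-1, a ventral factor, was at means of 0.529 and 3.60 CPM (-2.03). The 2 members that were higher in brain were Msx1 (2.04) and Meis2 (1.16), the latter not with the deposited scaling.

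Of 34 forebrain transcription factors, 21 passed the level filter and 14 were called higher in brain with none lower, against 3.41% of all genes, and the median was 2.14. Members very low in spinal cord, such as Lhx2, Nr2e1, Emx1 and Emx2, passed the filter through brain alone, which fixed their direction. Lhx2, a LIM homeobox gene (ENSMUSG00000000247, chromosome 2, 38339281 to 38369733, plus strand), was at 23.7, 24.4 and 15.1 CPM in brain and at 0.322, 0.277 and 0.534 CPM in spinal cord (4.6 ± 0.20, adjusted p = 8.86e-06). Nr2e1, the orphan nuclear receptor Tlx of forebrain stem cells, was at 18.4, 16.2 and 13.1 CPM in brain and 0.349, 0.154 and 0.220 CPM in spinal cord (4.46 ± 0.16). Emx2 was at a mean of 5.53 CPM in brain with 3 reads in all in spinal cord, and Emx1 at 2.02 CPM, also with 3 reads. Neurod6 (2.29), Neurod2 (2.14) and Tbr1 (1.66) are factors of cortical excitatory neurons and were called at means of 2.39, 2.12 and 2.17 CPM. Gsx2, a ventral forebrain factor, differed by 2.28. Members not called included Nr2f2 (-0.27) and Pax6 (0.25). The highest mean among the genes of the list named here was that of Lhx2, at 21.0 CPM.

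The largest group of abundant genes that were lower in brain was that of myelin. Of 50 myelin and mature oligodendrocyte genes, 33 were called lower in brain and 2 higher, with a median of -2.04, against 3.67% and 3.41% of all genes. Mal (ENSMUSG00000027375, chromosome 2, 127633226 to 127656695, minus strand), a membrane proteolipid that sorts cargo in myelinating cells, was at 5.35, 5.21 and 14.6 CPM in brain and at 585.0, 592.2 and 498.5 CPM in spinal cord. As in all called genes the regions did not overlap, and the difference was -6.13 ± 0.34 (limma adjusted p = 2.43e-05). Mobp, a myelin-associated basic protein, was at 20.0, 20.0 and 94.7 CPM in brain and 1507, 1489 and 1042 CPM in spinal cord (-5.28 ± 0.55). Mog, an outer-surface myelin glycoprotein, was at 6.59, 7.06 and 19.4 CPM in brain and 313.1, 315.1 and 239.6 CPM in spinal cord (-4.81 ± 0.37).

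The same order of libraries was seen in the most abundant myelin genes. Mbp, myelin basic protein, was at 617.1, 623.2 and 1532 CPM in brain and 6417, 6187 and 4146 CPM in spinal cord (-2.71 ± 0.35, adjusted p = 0.000916). Mag, the adhesion glycoprotein next to the axon, was at 102.3, 107.0 and 302.5 CPM against 2462, 2363 and 1609 CPM (-3.82 ± 0.40). Cnp, an enzyme that marks oligodendrocytes from early differentiation, was at 639.2, 633.6 and 1183 CPM against 3507, 3428 and 2603 CPM (-2.01 ± 0.24). In each, brain replicate 3 was the highest brain library and spinal cord replicate 3 the lowest spinal cord library. Genes of late oligodendrocytes were lower in level. Opalin was at 0.106, 0.0772 and 0.427 CPM in brain and 9.74, 10.2 and 9.05 CPM in spinal cord (-3.88 ± 0.19). Klk6, a protease of mature oligodendrocytes, had 3 reads in all in brain and was at 4.19, 4.40 and 2.20 CPM in spinal cord, and Trf, transferrin, was at 1.77, 1.74 and 3.14 CPM against 41.8, 43.4 and 33.9 CPM. Ermn, a cytoskeletal protein, differed by -4.78, and Hapln2, a link protein of the node of Ranvier, by -4.32.

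Not all members of the list were lower in brain. The 15 that were not called included Qk, an RNA-binding protein of the lineage, at 2367, 2280 and 2527 CPM in brain and 3197, 3284 and 3028 CPM in spinal cord (-0.41 ± 0.07), Enpp2 (-0.68) and Cd9 (0.62). The 2 called higher were Ptgds and Mal2. Ptgds, prostaglandin D2 synthase, is expressed by leptomeningeal cells as well as by oligodendrocytes, and was at 160.4, 169.5 and 153.3 CPM in brain and 11.4, 10.5 and 47.1 CPM in spinal cord (3.13 ± 0.50, adjusted p = 0.0023). Mal2, a paralog of Mal, was at 3.4, 3.67 and 4.09 CPM against 1.05, 1.57 and 0.565 CPM. Without replicate 3 of both regions the median of the list was -2.22. Nkx6-2 (-3.78) shares its locus with a gene of similar level, Inpp5a, and is uncertain.

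Genes of the intermediate stages lay between precursors and myelin. Of 25 markers of committed precursors and newly formed oligodendrocytes, 11 were called lower in brain and none higher (median -0.96). Casr, the calcium-sensing receptor, was at 2.48, 2.01 and 11.6 CPM in brain and 107.3, 103.0 and 60.4 CPM in spinal cord (-4.29 ± 0.56), Gpr37, a receptor of premyelinating cells, differed by -3.79 ± 0.33, and Tspan2, a tetraspanin, by -2.78 ± 0.20. Of the 25 estimates, 24 were negative. The 14 members not called included Neu4 (0.10) and Bmp4 (-0.13), which the study names as hallmarks of committed precursors. Gpr17 (-0.18) and Fyn (-0.30) were also not called, and Gpr17 was at means of 3354 and 3785 CPM. Enpp6, a marker of newly formed oligodendrocytes, was at means of 212 and 391 CPM (-0.97) and just missed the 2-fold limit. With replicates 1 and 2 averaged, 6 of the 25 were called.

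Of 34 transcription factors of the oligodendrocyte lineage, 3 were called lower in brain and 1 higher, and the median was 0.02 (-0.20 with the deposited scaling). Myrf, the factor that switches on myelin genes, was at 40.7, 39.0 and 87.8 CPM in brain and 164.6, 157.0 and 119.9 CPM in spinal cord (-1.48 ± 0.30, adjusted p = 0.00594), and was not called with replicates 1 and 2 averaged. The others were Nkx6-2, Nkx6-1 and, higher in brain, Sox9. Factors that are shared by precursors and oligodendrocytes did not reach 2-fold: Sox10 differed by -0.45, Nkx2-2 by -0.42, Sox8 by -0.04, Olig2 by 0.04 and Olig1 by 0.31.

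The promoters of myelin genes were read for the core of the site bound by SOX proteins, written here as ACAAAG or ACAATG on either strand. RefSeq promoter sequences (GRCm38.p6, 250 bases before the start) were matched by symbol for 33 of the 50 list members. ACAAAG was present in 8 of the 33 (24.2%), against 18.6% of all 27025 genes in the table and 14.4% of the tested genes, and ACAATG in 6 (18.2%), against 12.2% and 7.48%. ACAAAG was not particular to myelin genes. It was also present in 4 of 16 cholesterol synthesis genes, 4 of 19 Hox genes and 3 of 16 forebrain factors with a promoter in the RefSeq table. ACAATG was present in 0 of each of these 3 lists. The myelin genes had more starts per gene than the tested genes (1.45 against 1.29) and fewer CpG per promoter (medians of 8 and 16). The shares were not adjusted for either. These shares are descriptions, with no test, and a match is not a site. Mobp and Mag, of the genes with the largest level differences, are shown with matches in capitals, 5′ to 3′ along the gene's strand. Mobp lies at chr9:120149492-120149741 (plus strand) with 6 matches, and Mag at chr7:30914864-30915113 (minus strand) with 1 match.
Mobp: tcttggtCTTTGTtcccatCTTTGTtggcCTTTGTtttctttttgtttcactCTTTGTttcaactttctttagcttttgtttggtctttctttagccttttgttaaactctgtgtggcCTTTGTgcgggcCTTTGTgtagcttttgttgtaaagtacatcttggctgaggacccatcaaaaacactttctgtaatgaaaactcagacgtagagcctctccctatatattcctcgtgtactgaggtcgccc
Mag: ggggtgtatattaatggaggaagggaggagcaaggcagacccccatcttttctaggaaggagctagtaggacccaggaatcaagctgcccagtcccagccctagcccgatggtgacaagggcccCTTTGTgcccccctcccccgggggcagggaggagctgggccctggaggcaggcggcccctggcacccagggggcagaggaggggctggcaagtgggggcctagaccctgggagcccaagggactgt

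Cholesterol synthesis genes were lower in brain as a group: 10 of 22 were called lower, none higher, and all 22 estimates were negative with a median of -0.93. Hsd17b7, an enzyme of the later part of the pathway, was at means of 40.9 ± 7.98 CPM (SD, n = 3) in brain and 104.2 ± 11.8 CPM in spinal cord (-1.35 ± 0.14, adjusted p = 0.000301). Lss, lanosterol synthase, was at 164.1 ± 15.5 CPM against 412.4 ± 39.4 CPM (-1.33 ± 0.09), and Hmgcs1, an enzyme at the entry of the pathway, at 748.8 ± 1.91 CPM against 1529 ± 169.4 CPM (-1.02 ± 0.08, just under 2-fold without spinal cord replicate 1 or 2). The regions did not overlap in any of these genes. Srebf2, the transcription factor that controls these genes, differed by -0.25 and was not called. Spinal cord replicate 3 was below the other spinal cord libraries in 22 of 22 members, with a median of -0.28, and without replicate 3 of both regions the list's median was -1.04.

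The promoters of this list share a feature that the selection did not use. CCAAT, the box bound by NF-Y, on either strand, was present within 250 bases before the start in all 16 members that the RefSeq table holds (100%), against 37.5% of all genes in the table and 40.7% of the tested genes. The core of the sterol regulatory element, written as TCACNCCAC, was present in 1 of the 16, against 1.22% of all genes. In the 33 matched myelin genes CCAAT was present in 42.4%. The 250 bases before the start are shown for 4 called members, with matches in capitals, 5′ to 3′ along the gene's strand: Hmgcs1 at chr13:119690101-119690350 (plus strand), where the capitals mark both motifs, Cyp51 (-1.06, and -0.99 without spinal cord replicate 2) at chr5:4104698-4104947 (minus strand), Lss at chr10:76531355-76531604 (plus strand) and Idi1 at chr13:8885356-8885605 (plus strand). ATTGG is CCAAT on the opposite strand.
Hmgcs1: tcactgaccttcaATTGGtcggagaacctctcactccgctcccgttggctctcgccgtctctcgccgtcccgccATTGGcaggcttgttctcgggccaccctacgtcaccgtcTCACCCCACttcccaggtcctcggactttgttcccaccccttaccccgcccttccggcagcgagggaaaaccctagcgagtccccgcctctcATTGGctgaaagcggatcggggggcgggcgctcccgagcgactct
Cyp51: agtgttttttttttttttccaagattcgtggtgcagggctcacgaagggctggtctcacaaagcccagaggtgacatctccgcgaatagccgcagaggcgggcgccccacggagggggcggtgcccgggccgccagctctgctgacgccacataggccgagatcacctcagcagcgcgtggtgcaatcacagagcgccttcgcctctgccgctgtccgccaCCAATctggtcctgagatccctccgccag
Lss: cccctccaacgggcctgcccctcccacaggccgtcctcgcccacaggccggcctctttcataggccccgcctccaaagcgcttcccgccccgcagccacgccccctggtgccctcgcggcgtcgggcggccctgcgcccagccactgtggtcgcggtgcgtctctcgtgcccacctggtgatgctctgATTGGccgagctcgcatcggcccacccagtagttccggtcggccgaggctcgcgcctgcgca
Idi1: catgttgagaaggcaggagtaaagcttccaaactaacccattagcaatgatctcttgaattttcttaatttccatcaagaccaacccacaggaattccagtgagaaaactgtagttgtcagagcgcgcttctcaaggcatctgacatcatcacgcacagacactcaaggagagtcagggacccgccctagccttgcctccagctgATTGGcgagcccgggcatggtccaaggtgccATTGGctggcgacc

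Hmgcs1 held 4 matches in all, Idi1 2 and Cyp51 and Lss 1 each. The called genes as a whole were close to the background for CCAAT, at 39.0% of those higher in brain and 43.6% of those lower. The core promoter motif TATAAA was present in 15.2% of genes called higher in brain, 7.67% of those lower, 7.76% of all tested genes and 14.3% of all genes in the table.

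**Figure D4:**
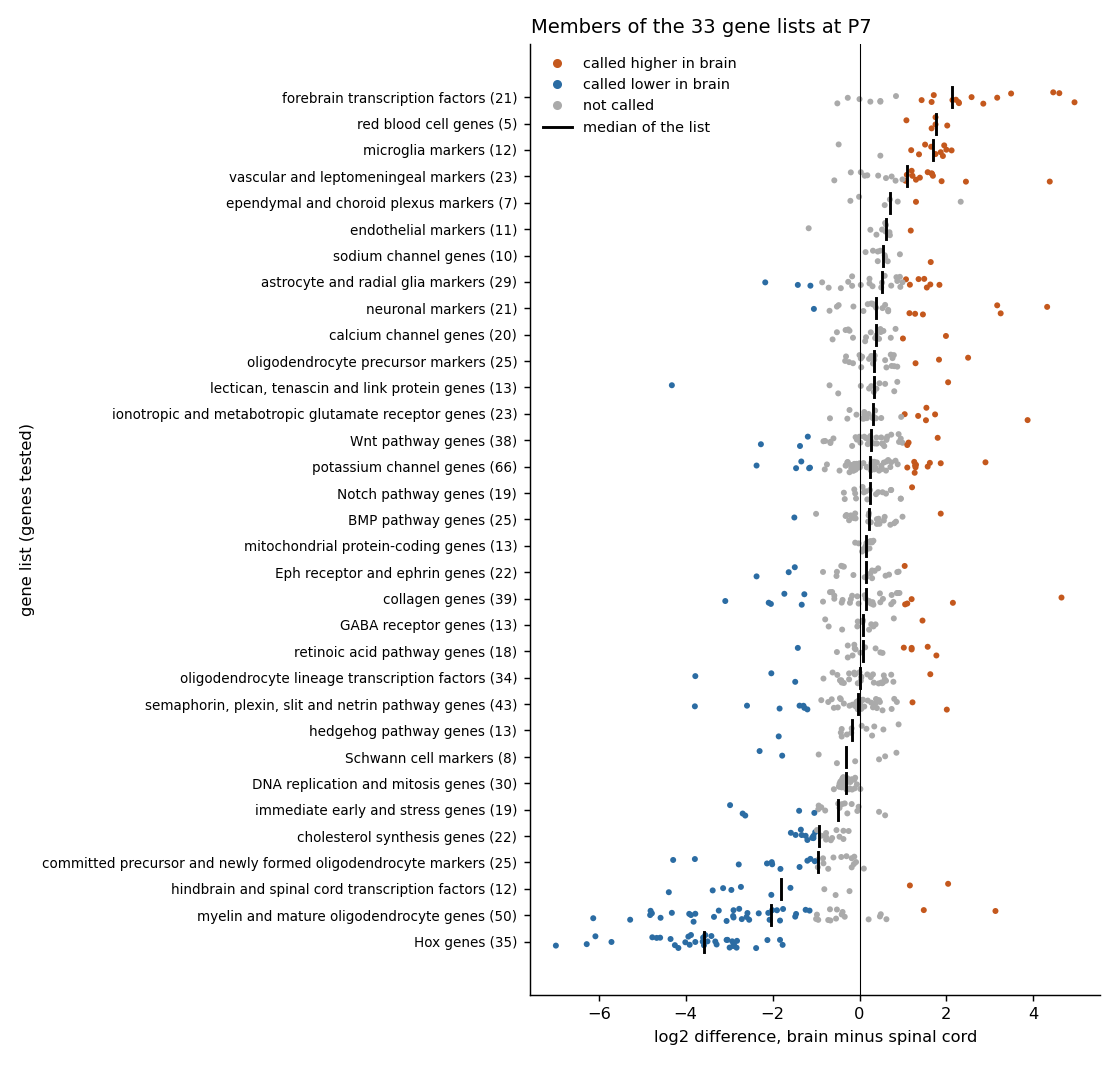
Difference between P7 brain and spinal cord (log2, horizontal axis) for the tested members of 33 gene lists, ordered by the median of the list (black bar). Orange points were called higher in brain, blue points lower and grey points not called; Hox genes (median -3.58) and myelin genes (-2.04) lie at one end and forebrain transcription factors (2.14) at the other.

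For lists with no limma call in a direction, edgeR and DESeq2 made none there either, except that DESeq2 called 1 endothelial marker lower in brain and both called 1 hedgehog pathway gene higher. At an unadjusted p under 0.05 the numbers in the empty direction were 0 for the committed, cholesterol, Hox, vascular, red blood cell, ependymal and sodium channel lists. They were 3 lower of OPC markers, 1 lower each of forebrain factors, endothelial markers, microglia markers and glutamate receptors, 5 lower of calcium channels, 3 lower each of GABA receptors and Notch genes, 2 higher each of Schwann cell and immediate early genes, and 3 higher of hedgehog genes.

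Outside these lists, the gene with the largest difference among those lower in brain was Mybpc1 (chromosome 10, 88518279 to 88605152, minus strand), a myosin-binding protein of slow muscle. It was at 0.603, 0.540 and 1.01 CPM in brain and 65.8, 62.5 and 77.8 CPM in spinal cord (-5.84 ± 0.16, adjusted p = 1.14e-06). Nipal4, a putative magnesium transporter, was at 1.42, 0.965 and 4.82 CPM against 83.6, 83.2 and 53.6 CPM (-4.88 ± 0.44). Kndc1, a guanine nucleotide exchange factor, was at 15.4, 15 and 44.6 CPM against 294.1, 284.4 and 198.0 CPM (-3.52 ± 0.39). For Nipal4 and Kndc1, as for the myelin genes, brain replicate 3 was the highest brain library and spinal cord replicate 3 the lowest spinal cord library, whereas Mybpc1 was highest in spinal cord replicate 3.

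Among genes higher in brain, Col19a1 (ENSMUSG00000026141, chromosome 1, 24261890 to 24587472, minus strand), a fibril-associated collagen, was at 61.1, 61.0 and 37.9 CPM in brain and 1.61, 1.72 and 1.44 CPM in spinal cord (4.65 ± 0.18, adjusted p = 5.76e-06). Chl1, a cell adhesion molecule of the L1 family, was at 356.3, 345.8 and 247.0 CPM against 26.6, 26.9 and 18.5 CPM (3.69 ± 0.18, adjusted p = 1.28e-05). Fstl5, a secreted follistatin-like protein, was at 125.9, 123.4 and 103.5 CPM against 9.82, 10.8 and 12.8 CPM (3.35 ± 0.11). As in all called genes, the regions did not overlap, which was a condition for naming these 3 genes.

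Further genes higher in brain reached high levels. Gpc5, a glypican, was at 118.1, 115.6 and 83.8 CPM in brain and 15.2, 17.2 and 13.2 CPM in spinal cord (2.75 ± 0.15). S1pr1, a sphingosine 1-phosphate receptor, was at 116.7, 112.0 and 73.8 CPM against 25, 23.1 and 16.1 CPM (2.20 ± 0.21). Like Chl1, Col19a1 and Ednrb, these were lowest among brain libraries in replicate 3. Slc7a11, the cystine-glutamate exchanger, was at 485.3, 484.0 and 519.5 CPM against 68.9, 71.2 and 156.5 CPM (2.43 ± 0.28). Slc7a11, Ptgds and Vtn were highest in spinal cord replicate 3 among the spinal cord libraries, the library with most vascular and leptomeningeal RNA, and the part of those cells in their differences was not tested. Ndnf, a secreted neurotrophic factor, was at 34.4, 34.1 and 38.9 CPM against 2.23, 2.28 and 2.83 CPM (3.63 ± 0.11), and Gda, guanine deaminase, at 8.76, 8.84 and 8.91 CPM against 0.295, 0.339 and 0.0942 CPM (3.67 ± 0.15).

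Dividing cells were measured through 30 genes of DNA replication and mitosis. None was called in either direction by limma, edgeR or DESeq2, with 20 lower and 0 higher at an unadjusted p under 0.05, and 29 of 30 estimates were negative, with a median of -0.32 against -0.01 over all tested genes. Mki67, a marker of cycling cells, was at 385.6, 377.2 and 329.5 CPM in brain and 368.3, 375.4 and 437.1 CPM in spinal cord (-0.11 ± 0.09), and Top2a, a replication-linked topoisomerase, at 385.3, 376.9 and 293.5 CPM against 404.4, 407.1 and 460.2 CPM (-0.28 ± 0.11). In brain replicate 3 none of the 30 genes was above the mean of the other brain libraries, and the median difference from it was -0.36, and without replicate 3 of both regions the list's median was -0.19. Of 13 mitochondrial protein-coding genes none was called by any of the 3 tools, with 7 higher and 0 lower at an unadjusted p under 0.05, and their median was 0.16 with TMM and -0.05 with the deposited scaling. mt-Co1 differed by 0.14 and mt-Co3 by 0.26.

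Immediate early and stress genes, which can respond to dissociation as well as to activity, gave 5 of 19 called lower in brain and none higher (median -0.49). Arc, an activity-induced gene, was at 2.02, 2.12 and 3.42 CPM in brain and 26.2, 26.1 and 17.2 CPM in spinal cord (-2.98 ± 0.22). The heat shock genes Hspa1a and Hspa1b, which are near-identical copies and share reads, differed by -2.69 ± 0.16 and -2.63 ± 0.14. Fos differed by -1.39 and Egr1 by -1.04 (-0.71 and not called without brain replicate 3), while Jun (-0.79) was not called. With the deposited scaling 9 of the 19 were called lower, and with all 12 libraries in the fit 3.

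Ion channels and transmitter receptors were surveyed by family, since OPCs receive synaptic input. Of 66 potassium channel genes, 10 were called higher in brain and 5 lower (22.7% called, against 7.09% of all genes). Higher were Kcnj16, a glial inward rectifier (1.28, means of 60.3 and 24.4 CPM), Kcnk10, a 2-pore channel (1.29, 52.6 and 21.2 CPM), and Kcng1, with 1 read in spinal cord. Kcnh3 (2.90) overlaps the far more abundant Mcrs1 and Kcnh7 (1.62) overlaps Gca, and both values are uncertain. Lower were Kcnk13 (-2.37 ± 0.13), at 1.31, 1.77 and 1.89 CPM in brain and 9.82, 11.5 and 10.6 CPM in spinal cord, Kcne4 (-1.46) and Kcnk3 (-1.34). Kcnj10, the main glial inward rectifier, was at means of 74.6 and 93.0 CPM and was not called (-0.32). Of 10 sodium channel genes, Scn3b, a beta subunit, was called higher in brain at 87.2, 85.4 and 66.9 CPM against 28.6, 26.5 and 21.0 CPM (1.64 ± 0.14), while the pore-forming Scn3a (0.48) and Scn8a (0.14) were not. All 10 estimates were positive, with a median of 0.53 (0.32 with the deposited scaling). Of 20 calcium channel genes, 2 were called, both higher in brain (10%, against 3.41% of all genes). Cacna2d1, an alpha2delta subunit, was at 79.6, 74.4 and 66.8 CPM against 19, 19.3 and 16.4 CPM (1.99 ± 0.09). Cacng2 was called at 1.00, a call lost under 8 of 21 alternatives, among them leaving out brain replicate 1, brain replicate 3 or spinal cord replicate 3.

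Of 23 glutamate receptor genes, 6 were called higher in brain (26.1%, against 3.41% of all genes) and none lower, with a median of 0.32. Without spinal cord replicate 3, 1 was called lower. Grin2b, an NMDA receptor subunit that is abundant in forebrain, was at 53.6, 57.6 and 57.8 CPM in brain and 4.48, 4.22 and 1.98 CPM in spinal cord (3.87 ± 0.24, adjusted p = 4.09e-05). Gria2, the AMPA receptor subunit that limits calcium entry, was at means of 1368 and 534.2 CPM (1.35). Grm3, a metabotropic receptor, was at 20.7, 19.8 and 27.3 CPM against 6.95, 6.62 and 5.56 CPM (1.74 ± 0.14), and Grin2a differed by 1.54 ± 0.16. Grin1, the obligatory NMDA subunit, differed by 0.32 and Gria4 by -0.07. Of 13 GABA receptor genes only Gabra5 was called (1.45 ± 0.19, at 3.01, 3.82 and 2.81 CPM against 1.21, 0.770 and 0.628 CPM). The better expressed Gabbr1 (0.08) was not called. The median of the GABA list was 0.08 with TMM and -0.14 with the deposited scaling.

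Matrix genes moved in both directions. Of 39 collagen genes, 5 were called higher in brain and 6 lower (28.2% called, against 7.09% of all genes). The median was 0.14 (-0.08 with the deposited scaling). The number higher in brain was 9 without spinal cord replicate 3, 3 without brain replicate 3, spinal cord replicate 1 or spinal cord replicate 2, and 2 with the deposited scaling. Besides Col19a1, Col7a1, an anchoring fibril collagen, was at 33.9, 30.2 and 45.0 CPM in brain and 7.43, 6.68 and 9.08 CPM in spinal cord (2.15 ± 0.16). The basement membrane collagen Col4a1 differed by 1.20 ± 0.20, was not called with the deposited scaling, and overlaps Col4a2. Lower in brain were Col2a1, a cartilage collagen, at 1.81, 2.20 and 5.53 CPM against 26.2, 22.3 and 37.7 CPM (-3.09 ± 0.36), Col9a1 (-2.09) and Col14a1 (-2.04). Among 13 genes of lecticans, tenascins and link proteins, Hapln1 was called higher in brain (2.04) and Hapln2 lower. The abundant lecticans Bcan (0.03), Ncan (0.39) and Vcan (0.22) were not called.

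Guidance genes were called lower in brain in greater number than higher. Of 43 semaphorin, plexin, slit and netrin pathway genes, 7 were lower and 2 higher (20.9% called, against 7.09% of all genes). Unc5b, a netrin receptor, was at 5.25, 3.55 and 10.3 CPM in brain and 93.4, 92.6 and 75.3 CPM in spinal cord (-3.79 ± 0.31). Sema4d, a semaphorin made by oligodendrocytes, was at 42.3, 41.4 and 107.0 CPM against 405.6, 400.2 and 258.4 CPM (-2.59 ± 0.36), and Sema3e differed by -1.84. Unc5d, a relative of Unc5b, went the other way, at 9.32, 8.45 and 8.52 CPM against 1.66, 2.59 and 1.32 CPM (2.01 ± 0.19), with Plxnd1 (1.22). Of 22 Eph receptors and ephrins, Ephb1 (-1.63), Efnb3 (-1.49) and Epha1 (-2.37) were called lower and Epha6 (1.04) higher (18.2% called). Epha1 overlaps the more abundant Zyx and is uncertain, and Epha6 was lost under 6 of 21 alternatives, among them leaving out brain replicate 3 or spinal cord replicate 2. The number of Eph and ephrin genes higher in brain was 2 without brain replicate 1 and 3 without spinal cord replicate 3. The medians of these lists, -0.04 and 0.14, changed sign between scalings.

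Signalling pathways differed in how many members were called, from 33.3% in the retinoic acid pathway and 15.8% in the Wnt pathway to 8% for BMP, 7.7% for hedgehog and 5.3% for Notch, against 7.09% of all tested genes. In the retinoic acid pathway, 5 of 18 genes were called higher in brain and 1 lower, with a median of 0.08 (-0.09 with the deposited scaling). Aldh1a1, a retinoic acid synthesising enzyme, was at 19.6, 17.6 and 26.2 CPM in brain and 4.62, 4.96 and 8.14 CPM in spinal cord (1.77 ± 0.22). Crabp2 (1.57), a cellular binding protein, and Cyp26b1 (1.20), a degrading enzyme, were also called, and Aldh1a3 (-1.42) was lower, a call lost without replicate 3 of both regions. Crabp2 is also counted among the vascular and leptomeningeal markers above. With a pseudocount of 2 these 3 genes were not called, and the list gave 2 higher and 0 lower. Of 38 Wnt pathway genes, 3 were called in each direction. Wnt3 was at 1.99, 1.81 and 2.69 CPM in brain and 14.9, 12.4 and 9.74 CPM in spinal cord (-2.27 ± 0.18), with Fzd5, a receptor, at -1.37 and the secreted inhibitor Wif1 at -1.19, lost without spinal cord replicate 3. Fzd6 was at 10.7, 9.11 and 12.3 CPM against 2.66, 2.71 and 2.73 CPM (1.80 ± 0.12), while Wnt5a (1.13) and Wnt4 (1.10) were lost when spinal cord replicate 1 or 2 was left out. Of 25 BMP pathway genes, Smad7, an inhibitor of the pathway, was lower in brain (-1.50 ± 0.18) and the ligand Bmp6, which overlaps Txndc5 and is uncertain, was higher (1.87). Of 13 hedgehog pathway genes only the antagonist Hhip was called, at 15.8, 16.6 and 23.8 CPM against 77.1, 78.2 and 52.2 CPM (-1.86 ± 0.20), and Ptch1, a receptor and target, differed by -0.41. Of 19 Notch pathway genes only Heyl was called (1.21), and Notch1 (-0.12) and Dll1 (0.07) were not. Leaving out spinal cord replicate 3 gave 5 Wnt, 3 BMP, 2 Notch and 1 hedgehog pathway genes called higher in brain, and leaving out spinal cord replicate 1 gave 1 Wnt gene. Other single libraries also moved the BMP, Notch and hedgehog counts, by 1 gene each.

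Whether the P7 region difference was already present at E13.5 was asked in 1 fit over all 12 libraries, with the change tested as an interaction of region and age. At E13.5, 1595 of 18319 tested genes were called for region (8.71%), and the change with age was called for 2750 (15%). Replicate 3 of the E13.5 spinal cord stood apart, with 40.97% of its reads in protein-coding genes and 31.116% in Gm42418, and without it 3346 changes were called. Of the 561 genes higher in brain at P7, 89 (15.9%) were also higher at E13.5, 85 (15.2%) were lower at E13.5 and 421 (75%) had a called change. Of the 604 genes lower in brain at P7, 128 (21.2%) were also lower at E13.5, 30 (5%) were higher and 426 (70.5%) had a called change. Choosing the genes at P7 favours a larger difference at P7 than at E13.5, so these shares are descriptions.

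Most Hox genes and forebrain factors were already called in the same direction at E13.5, whereas few myelin genes were. Of the 35 Hox genes, 31 were called lower in brain at E13.5, with a median of -4.78 against -3.58 at P7, both dependent on the added 0.5 CPM. A change in size was called for 24, 18 towards brain and 6 towards spinal cord. Towards brain means a less negative difference, which need not be a gain in brain. All Hox genes together were at 0.603 to 0.672 CPM in P7 brain. Hoxc8 (a change of 1.69) went from means of 0.24 CPM in brain and 30.3 CPM in spinal cord at E13.5 to 0 and 6.36 CPM at P7. Hoxa9 differed by -6.35 at E13.5 and -6.28 at P7, a change of 0.08 ± 0.52 (adjusted p = 0.926), and Hoxd8 by -4.19 and -6.99, a called change of -2.80 ± 0.31. Of 21 forebrain factors, 17 were called higher in brain at E13.5. Of these 21, 4 had a called change towards brain and 9 towards spinal cord, while Lhx2 (4.02) and Nr2e1 (4.97) had none. Of 12 hindbrain and spinal cord factors, 5 were called lower and 1 higher in brain at E13.5, and 3 changed towards brain and 6 towards spinal cord. Among the 50 myelin genes at E13.5, brain was called above spinal cord for 4 and below it for 2, with a median of 0.08, and 34 had a called change towards spinal cord. Some were too low at E13.5 for a 2-fold call with 0.5 CPM added, such as Opalin (means of 0.0146 CPM in brain and 0 in spinal cord) and Mog (0.211 and 0.0397 CPM). Others were expressed in both regions, such as Mbp (17.7 and 12 CPM) and Cnp (19.5 and 19 CPM). Mal differed by -0.19 at E13.5, when its mean was 0.596 CPM in brain and 0.621 CPM in spinal cord, and its change was -5.96 ± 0.69 (adjusted p = 5.2e-05). Mog changed by -5.15 ± 0.53 and Opalin by -3.93 ± 0.26. Cholesterol genes had a median of 0.56 at E13.5, and 18 of 22 had a called change towards spinal cord. Pdgfra differed by 0.63 at E13.5 and 0.79 at P7, with no called change, as did Sox9 (1.58 and 1.63), whereas Sox2 went from 2.02 to 0.50 (a change of -1.54 ± 0.18).

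Called changes of several other lists with age lay mostly in 1 direction. Of 30 replication and mitosis genes, 23 were called higher in brain at E13.5 and 27 had a called change towards spinal cord. Vascular and leptomeningeal markers had 7 called lower in brain at E13.5, and 15 of 23 changed towards brain. Of 39 collagens, 21 were called lower in brain at E13.5 and 20 changed towards brain. Among calcium channels 12 of 20 changed towards brain and 1 towards spinal cord, and among glutamate receptors 11 of 23 and 2. Of 10 sodium channels 6 changed towards brain, as did 9 of 12 microglia markers. Cacna2d1 went from -0.02 to 1.99, Grin2b from -0.57 to 3.87 and Chl1 from 0.07 to 3.69. The study's methods describe mechanical dissociation for embryos and papain for P7 pups, so age and dissociation cannot be told apart in these changes.

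**Figure D5:**
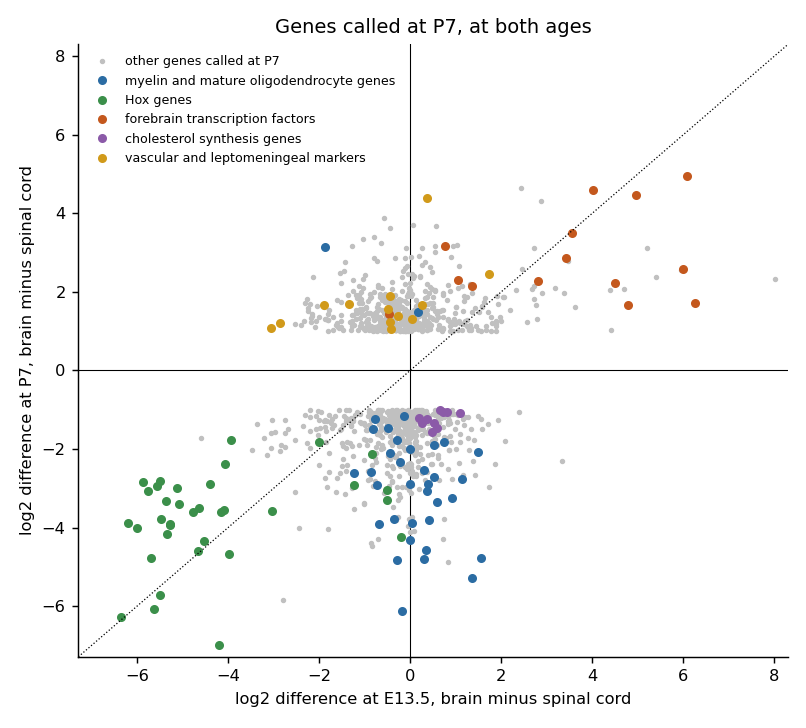
Difference between brain and spinal cord (log2) at E13.5 (horizontal axis) and P7 (vertical axis) for the 1165 genes called at P7, each point a gene; the dotted line marks equal differences. Hox genes (green) and forebrain transcription factors (orange) mostly lie on the same side of 0 at both ages, while myelin genes (blue) spread around 0 at E13.5 and lie below -1 at P7 except Ptgds and Mal2.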

How the data were processed

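Total RNA-seq of sorted Pdgfra/GFP+ cells was analysed from the deposited gene table. Per the study's methods and the labels, stranded libraries were made from pooled animals, the authors aligned reads with STAR 2.5.0a to mm10, counted them over GENCODE genes with featureCounts 1.5.0-p1, with reads of multiple matches shared as fractions and rounded, and deposited CPM values scaled by library factors. Because of that scaling, 3 of the 12 columns deposited by the authors exceed the total a CPM column can have and were handled as signal values. Whether counting used strand is not given in the sources used here. All deposited values were whole multiples of 1 read within 0.001 reads, so the reads per library were recovered and rescaled by TMM over the 6 P7 libraries (edgeR 4.0.16). Counting intervals and floors (3 reads per library) cover counting error only.

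Genes with at least 0.7 CPM in 3 of 6 libraries were tested with limma 3.58.1 (trend) on log2(CPM + 0.5) with Benjamini-Hochberg adjustment, and called at an adjusted p under 0.05 and a fold over 2. The change with age was the interaction in 1 fit over 12 libraries. Alternatives were other scalings, pseudocounts, filters, tools (edgeR, DESeq2 1.42.0, voom), a replicate block and leaving out libraries. Gene symbols and positions (GRCm38, GENCODE M21) matched 46574 of 47069 identifiers, and 3 duplicate rows were dropped. Replicate numbers did not pair the samples. The P7 comparison by limma, edgeR and voom was tested on simulated data; DESeq2 and the fit of the change with age were not.

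Named genes were the 10 largest called differences in each direction whose higher group averaged 5 CPM or more, the 8 largest that averaged 100 CPM or more, up to 3 called members per list in each direction, the best expressed members of lists with few calls, and genes the study names. For the 10 and the 8 largest, the libraries of the regions had to be free of overlap, a condition that all called genes met. Clone and predicted-gene names were left out there. Other members named beside them were chosen after their values were seen. The comparison, the members and the lists were chosen with earlier results of these data known, and some lists hold genes the study picked from these libraries. Some genes under the rule are not reported here.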

Additional observations from a re-analysis of the deposited data

Results flagged for a closer look

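The change of the region difference between E13.5 and P7 was tested as an interaction, and 2750 of 18319 genes passed. Among the named genes, 13 that are reported here were called in opposite directions at the 2 ages, and for each the change itself passed (limma, Benjamini-Hochberg). Values below are the change of brain minus spinal cord from E13.5 to P7, on the log2 scale, with n = 3 libraries per region and age.

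Of these, 3 genes went from higher in brain at E13.5 to lower at P7. They were Ermn, a cytoskeletal gene of myelinating cells (-6.35, from 1.55 to -4.78), the activity-induced gene Arc (-4.72, from 1.73 to -2.98) and the cadherin gene Cdh19 (-3.70, from 1.38 to -2.30). At E13.5 they were low, with Ermn at means of 2.03 CPM in brain and 0.410 CPM in spinal cord and Cdh19 at 2.20 and 0.566 CPM.

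The others went from lower in brain to higher. Ptgds changed by 4.98, Nrgn by 4.43, Fstl5 by 4.35, Gpc5 by 4.15, Grin2a by 3.30, Col7a1 by 3.26, Grm3 by 3.23, Wnt4 by 3.18, Fcrls by 3.04 and Cyp26b1 by 2.78. Fstl5 was already abundant at E13.5, at means of 22.5 CPM in brain and 46.0 CPM in spinal cord, whereas Nrgn was at 0.178 and 1.15 CPM. The dissociation differed between the 2 ages and cannot be told apart from age.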

How the results depend on the processing

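Of 1165 genes called at P7, the count was 1136 to 1202 under the other scalings, 1130 with all 12 libraries in the fit, 1174 with libraries thinned to equal depth and 1222 with no filter. It was 1404 by edgeR, 1411 by DESeq2 and 1435 by limma-voom. With a pseudocount of 2 it fell to 735 (294 higher, 441 lower in brain) and with a filter at 5 CPM to 736 (294 higher, 442 lower), settings that shrink or leave out low genes. Testing against a 2-fold difference (limma treat) gave 387 (152 higher, 235 lower), and with no fold requirement 6885 passed (3324 higher, 3561 lower). Under the deposited scaling the median over all tested genes moved from -0.01 to -0.21 (log2) and 33.7% of 1202 calls were higher in brain, against 48.2%.

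Leaving out 1 library gave 1108 to 1265 calls, with 533 to 626 higher and 567 to 685 lower. With replicate 3 of both regions left out, an alternative chosen after seeing the data, there were 1329 calls. Replicates 1 and 2 of each region differed little from each other, and with each such pair averaged there were 1009 calls. Same-numbered libraries did not deviate together, with correlations of 0.013, 0.021 and 0.050, and a fit with a replicate block called 1159 genes. The count for the change with age, 2750, was 1865 with a pseudocount of 2, 2864 with the replicate block and 2554 to 3346 with 1 library left out.

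Of 137 named genes, 114 stayed called in the same direction or stayed not called in up to 22 settings. A turn of sign was counted only for a gene called in the main fit or in the other setting. By that count Ttr, a choroid plexus gene, was the 1 gene whose sign turned, to -1.16 with replicate 3 of both regions left out. The cause was not tested.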
